A study of Mus musculus with 4 samples.

Results

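The genes of the lysosome, of its proton pump and of autophagy were followed in whole mouse islets held at low or high glucose. The members were a list of 32 genes with known parts in these processes and every gene whose symbol begins with Atp6v0 or Atp6v1 (23 genes), a rule that uses no measured value. The members were nevertheless chosen with earlier results of these data known. They came to 55 of the 24012 distinct gene symbols in the table, namely 19 autophagy genes, 11 genes of the lysosomal membrane and its hydrolases, and 25 genes of the proton pump. Where a gene had several transcripts, the one with the highest mean stood for it.

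Autophagy encloses cytoplasm or whole organelles in a double membrane and delivers them to the lysosome, where hydrolases that work in acid break the cargo down. The vacuolar H+-ATPase keeps that acid. Its V1 sector in the cytosol hydrolyses ATP, and its V0 sector in the membrane carries the protons, in lysosomes and also in the insulin granules of the beta cell. Transcription factors of the TFEB family switch on many of these genes when nutrients are scarce, through a short palindromic promoter motif known as the CLEAR element, and mTORC1, a kinase that docks on the lysosome when nutrients are plentiful, keeps those factors out of the nucleus.

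The islets came from wild type male C57bl6 mice, 3 months old. After a night in culture at 11 mM glucose, the pooled islets were starved for 2 h at 2.8 mM and then stimulated at 16.8 mM or left at 2.8 mM glucose, with 2 libraries at each concentration. Both concentrations lasted 12 h by the series text. By the labels of the samples, 16.8 mM lasted 12 h but 2.8 mM lasted 2 h, in which case time and glucose cannot be told apart. All libraries drew on a single pool of islets, and the p-values therefore measure the spread between libraries and not between animals. Values are RPKM, which scale reads to the length of a gene and the depth of its library, here 50800000 to 60710000 reads.

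The islet identity of the libraries was plain from their hormones, and cells of other kinds moved with some libraries. The summed level of 8 beta cell markers was 20565 to 22913 RPKM at 2.8 mM and 40959 to 43731 RPKM at 16.8 mM, and 6 of the 8 were higher at 16.8 mM. None of the 4 tested alpha cell markers passed. The summed level of 9 markers of acinar cells, the digestive cells of the pancreas around the islets, was 103 and 292 RPKM at 2.8 mM against 247 and 511 RPKM at 16.8 mM. Replicate 2 was the higher library in both groups, and each replicate number was higher at 16.8 mM than at 2.8 mM. None of the 8 acinar markers tested passed by limma, but all 9 were higher at 16.8 mM by voom on reconstructed reads (adjusted p = 0.00213 to 0.0219). Of 14 macrophage and leukocyte markers, 6 were tested and 1 was higher, and their summed level was 19.1 to 25.7 RPKM at 2.8 mM and 22.1 to 27.7 RPKM at 16.8 mM. They ran from *Mrc1*, at 0.0062 to 0.0081 RPKM, to *Cd68*, itself a lysosomal protein, at 6.76 to 9.74 RPKM, and none was at 0. Of the markers of delta and PP cells none of 3 tested passed, of duct cells 1 of 2 was higher, of stroma the 1 tested did not pass, and the 6 endothelial markers were under the minimum. The part of these cells in the results below was not tested, and in whole islets fewer cells of a type and less RNA per cell cannot be told apart.

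A few of the members differed strongly between 16.8 mM and 2.8 mM glucose, and most of them little. Of the 41 members that reached a mean of 1 RPKM, 2 were higher and 9 were lower at 16.8 mM glucose (limma on log2(RPKM + 0.5), adjusted p under 0.05 over all transcripts), which is 26.8% of them. Among all 7867 transcripts tested, 33.4% were called, 10.7% as higher and 22.8% as lower. The share of members called was thus no larger than the background. The median log2 fold change was -0.09 over the tested members and -0.11 over all transcripts tested. The 2 libraries at 16.8 mM lay wholly above or wholly below those at 2.8 mM for 32 of the 41 members, 11 above and 21 below, and that was so for 70.4% of all transcripts. With each library centred on its median, the calls were 11 higher and 10 lower among the members, and 1662 higher and 2103 lower against 838 higher and 1790 lower over all transcripts, so smaller changes in either direction depended on the scaling.

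**Figure D1:**
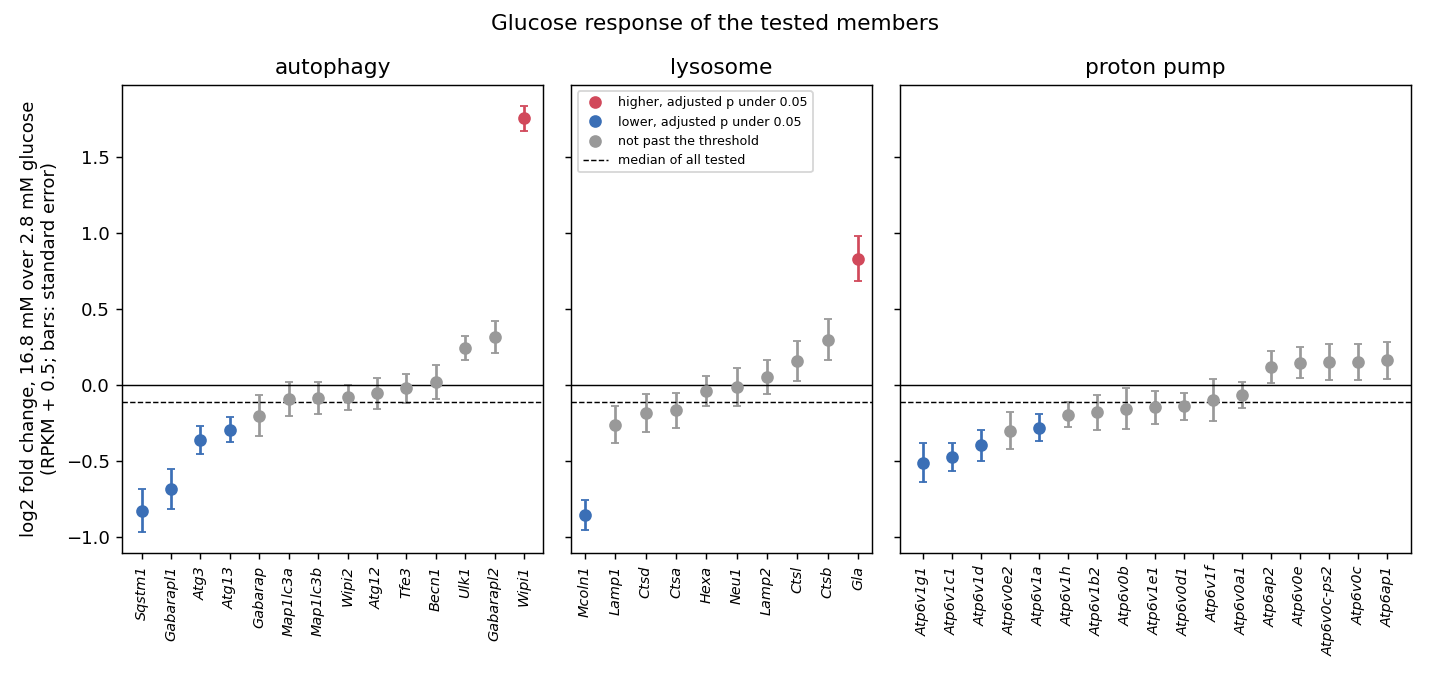
Log2 fold change of each tested member at 16.8 mM over 2.8 mM glucose (vertical axis, on the RPKM + 0.5 scale), with bars of 1 standard error, in 3 panels for the groups. *Wipi1* at 1.76 stands furthest from 0, *Sqstm1*, *Mcoln1* and *Gla* follow at -0.83, -0.86 and 0.83, and most other members lie near the dashed line, the median of all transcripts at -0.11.

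The promoters of several members carried the motif of the TFEB family. RefSeq promoter windows (build GRCm38.p6, 250 bases before to 50 bases after the start) matched 43 of the 55 members. The motif TCACGTGA, the core of the CLEAR element and its own reverse complement, stood in the windows of 8 of these 43 members, in 15.4% of their 52 windows and in 0.974% of all 32851 windows. Of those 8 genes, *Mcoln1*, *Atg3* and *Atp6v1a* were lower at 16.8 mM glucose, *Gla* was higher, and *Ctsa*, *Ctsd*, *Atp6v0d1* and *Atp6v0e* did not pass the test. The stretches around the motif are shown for the 4 genes that passed, because the same letters stand before genes that moved in opposite directions. Capitals mark TCACGTGA, and each line reads 5′ to 3′ towards the start of the gene.
*Mcoln1*, chr8:3500438-3500515, plus strand: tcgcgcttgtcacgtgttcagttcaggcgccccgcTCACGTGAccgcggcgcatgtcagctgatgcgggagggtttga
*Atg3*, chr16:45158722-45158799, plus strand: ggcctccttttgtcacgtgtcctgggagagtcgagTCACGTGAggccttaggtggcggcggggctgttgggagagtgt
*Atp6v1a*, chr16:44139349-44139426, minus strand: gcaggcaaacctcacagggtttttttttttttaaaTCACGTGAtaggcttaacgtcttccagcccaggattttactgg
*Gla*, chrX:134601158-134601255, minus strand: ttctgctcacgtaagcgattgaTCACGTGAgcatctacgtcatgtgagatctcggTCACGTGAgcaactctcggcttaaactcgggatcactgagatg
The motif began 46 bases before the start of *Mcoln1*, 72 bases before *Atg3* and 132 bases before *Atp6v1a*. *Gla* held it at 228 and at 195 bases before its start. The shorter E-box CACGTG, which is contained in TCACGTGA, stood in the windows of 13 members and in 7.15% of all windows, with 4 copies before *Lamp1*. *Mcoln1* and *Atg3* each held a further E-box ahead of the CLEAR core, at 71 and 94 bases before the start. The longer CLEAR element, with a G before the core and a C after it, was in no member window and in 0.326% of all windows. A pair of CACGTG with 5 bases between them, a strict form of the carbohydrate response element, was in no window of any gene. A match of letters does not show that a factor was bound.

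**Figure D2:**
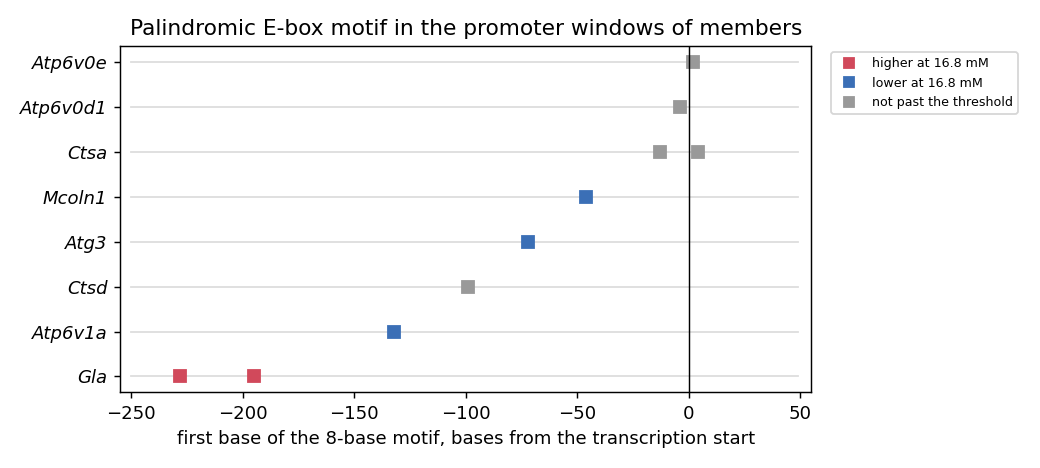
Position of the first base of TCACGTGA (horizontal axis, bases from the transcription start) in the promoter windows of the 8 members that hold it, 1 line a gene, in colours for the test result. The 3 members that were lower hold it between 132 and 46 bases before the start, *Gla*, which was higher, holds it at 228 and 195 bases, and the 4 other members hold it from 99 bases before to 4 bases after the start.

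Among the autophagy genes, the cargo receptor and 1 member of the ATG8 family were lower in the high glucose libraries, and *Wipi1* was 5.21-fold higher there. Of the 19 genes, 14 were tested, 1 was higher, 4 were lower and 9 did not pass. The share called was 35.7%, close to the 33.4% of all transcripts. The median log2 fold change was -0.08, against -0.11 over all transcripts. With the libraries centred on their medians, 3 were higher and 4 lower.

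*Sqstm1* encodes p62, the receptor that binds ubiquitinated cargo and is itself consumed by autophagy. It lies at chromosome 11, 50012868 to 50024293, on the minus strand (coordinates of genes are those of NCBI build 37, that of the table). It measured 85.4 and 80.9 RPKM at 2.8 mM and 50.5 and 43.1 RPKM at 16.8 mM glucose. Both high glucose libraries were below both low glucose libraries, and the mean fell from 83.1 ± 3.22 to 46.8 ± 5.25 RPKM (SD, n = 2 each). The log2 fold change was -0.83 ± 0.14 (SE, limma adjusted p = 0.00568). The reads reconstructed from its values were 57058 and 48013 against 35060 and 25030.

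The ATG8 family proteins are small ubiquitin-like proteins that are joined to the lipid of the growing membrane and hold cargo receptors there. *Gabarapl1* measured 14.2 and 11.9 RPKM at 2.8 mM and 8.33 and 7.50 RPKM at 16.8 mM glucose. Its log2 fold change was -0.68 ± 0.13 (SE, limma adjusted p = 0.00866). It was lower in both high glucose libraries, whereas the marker gene of autophagosomes, *Map1lc3b*, changed little, with 7.62 and 7.07 RPKM against 7.02 and 6.76 RPKM (log2 fold change -0.09, limma adjusted p = 0.558). *Map1lc3a* (log2 fold change -0.09) and *Gabarap* (log2 fold change -0.20) did not pass either. *Gabarapl2* lay on the other side, with 4.19 and 3.75 RPKM at 2.8 mM and 5.24 and 4.88 RPKM at 16.8 mM. Its groups did not overlap, and at a log2 fold change of 0.32 its limma adjusted p was 0.0541. Voom on reconstructed reads, which called 42.3% of all transcripts it could use, had it higher (log2 fold change 0.35, adjusted p = 0.00791). Limma called *Gabarapl2* with the libraries centred on their medians (adjusted p = 0.00621), but not with no minimum RPKM (adjusted p = 0.106).

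The order of the family by abundance is read here from levels rescaled to exon length, because the deposited RPKM values fit reads divided by the whole genomic span of a gene, introns included. On this rescaled RPKM, *Gabarap* was the highest at both concentrations, at 185 and 161. *Gabarapl1* came next at 2.8 mM, at 67.6, followed by *Map1lc3b* at 32.5 and *Gabarapl2* at 30.6. At 16.8 mM the values were 41.0 for *Gabarapl1*, 39.0 for *Gabarapl2* and 30.5 for *Map1lc3b*. On this scale *Gabarapl1* and *Gabarapl2* stood more than 2-fold apart at low glucose and side by side at high glucose. The scale assumes that all reads are exonic, which was not tested. In the deposited RPKM the means of *Gabarapl1* and *Gabarapl2* were 13.1 and 3.97 at 2.8 mM. At 16.8 mM they were 7.92 and 5.06, and thus still apart. *Map1lc3a*, at 14.3 and 13.4, was the lowest of the 5 at both concentrations. The whole of *Map1lc3a* lies within *Pigu* on the opposite strand, so reads of *Pigu* may be part of its value, and their share was not tested.

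**Figure D3:**
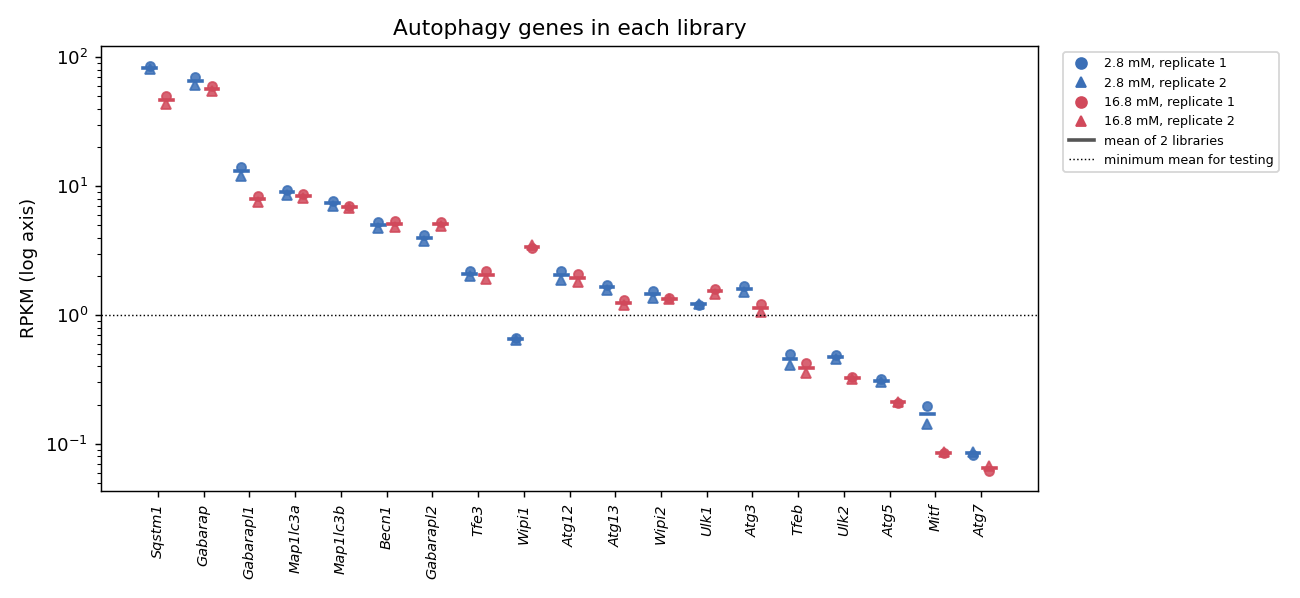
RPKM of the 19 autophagy genes in each of the 4 libraries (vertical log axis), ordered by mean, with circles for replicate 1, triangles for replicate 2 and bars for the mean of 2 libraries. *Wipi1* crosses from about 0.65 to 3.4 RPKM, *Sqstm1* and *Gabarapl1* fall in both libraries, and the dotted line marks the mean of 1 RPKM needed for the test.

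The genes that start autophagy did not move as one. *Wipi1*, which encodes a protein that binds the lipid PI3P at the site where the membrane forms, measured 0.668 and 0.636 RPKM at 2.8 mM and 3.31 and 3.48 RPKM at 16.8 mM glucose. The mean was 5.21-fold higher, with a log2 fold change of 1.76 ± 0.08 (SE, limma adjusted p = 4.58e-05), on 1488 and 1259 reads against 7659 and 6736 reads. The gene reached the minimum for testing only through the 16.8 mM libraries, and on reconstructed reads, with a minimum mean of 20 reads in place of 1 RPKM, voom gave a log2 fold change of 2.38 (adjusted p = 1.98e-11). It lies at chromosome 11, 109434645 to 109472746, with no annotated gene across its span. Its paralog *Wipi2* showed no such change, with a log2 fold change of -0.08 (limma adjusted p = 0.493).

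*Ulk1* encodes the kinase that opens the pathway and that mTORC1 holds in check. It measured 1.2 and 1.22 RPKM at 2.8 mM and 1.59 and 1.47 RPKM at 16.8 mM, and its log2 fold change of 0.25 did not pass (limma adjusted p = 0.0509). *Ulk2*, the paralog, was under the minimum and measured 0.488 and 0.454 RPKM against 0.330 and 0.322 RPKM. On reconstructed reads, by voom, *Ulk1* was higher (log2 fold change 0.34, adjusted p = 0.0119) and *Ulk2* lower (log2 fold change -0.53, adjusted p = 0.000527). The 2 kinase genes therefore moved apart in that test. With no minimum RPKM, limma called neither *Ulk1* (adjusted p = 0.0792) nor *Ulk2* (0.0567). *Atg13*, whose protein is a partner of these kinases, measured 1.72 and 1.58 RPKM against 1.31 and 1.2 RPKM and was lower (log2 fold change -0.29 ± 0.08 SE, limma adjusted p = 0.0352). *Becn1*, a subunit of the lipid kinase complex that makes PI3P, measured 5.31 and 4.72 RPKM against 5.39 and 4.80 RPKM. Its groups overlapped (log2 fold change 0.02, limma adjusted p = 0.895), and 10366 bases of its span are shared with *Cntd1*, so the reads of the 2 genes may not be separate.

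The conjugation genes attach the ATG8 proteins to the membrane. *Atg3*, the enzyme that passes them to the lipid, measured 1.69 and 1.5 RPKM at 2.8 mM and 1.21 and 1.06 RPKM at 16.8 mM and was lower (log2 fold change -0.36 ± 0.09 SE, limma adjusted p = 0.0224). *Atg12* did not pass, at a log2 fold change of -0.05. *Atg5* and *Atg7* were under the minimum. *Atg5* measured 0.317 and 0.302 RPKM against 0.209 and 0.213 RPKM, and *Atg7* measured 0.0824 and 0.0871 RPKM against 0.0622 and 0.0673 RPKM. Neither pair of groups overlapped, and voom on reconstructed reads called both lower (log2 fold change -0.55, adjusted p = 0.00049, for *Atg5* and -0.39, adjusted p = 0.0123, for *Atg7*). That test called 42.3% of all 18554 transcripts it could use. With no minimum RPKM, limma called *Atg5* (adjusted p = 0.0469) but not *Atg7* (0.066).

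None of the 3 genes of transcription factors that act on the CLEAR motif was called by limma, and *Tfe3* alone reached the minimum for testing. *Tfeb* measured 0.50 and 0.407 RPKM at 2.8 mM and 0.427 and 0.357 RPKM at 16.8 mM glucose, with overlapping groups and no call by voom (log2 fold change -0.21, adjusted p = 0.198). *Tfe3* measured 2.18 and 2.00 RPKM against 2.21 and 1.90 RPKM (log2 fold change -0.02, limma adjusted p = 0.884). *Mitf* measured 0.197 and 0.144 RPKM against 0.0847 and 0.0859 RPKM and was lower by voom (log2 fold change -0.99, adjusted p = 2.04e-05). With no minimum RPKM, limma did not call *Mitf* (adjusted p = 0.111). Levels rescaled to exons are not compared here, because they use the longest annotated span of a gene. The means of the *Tfeb* transcripts ran from 0.0604 to 0.423 RPKM and those of *Mitf* from 0.0547 to 0.128 RPKM. That span may therefore not be the one behind the transcript used. The voom results of *Tfeb* and *Mitf* rest on reads reconstructed with it. The 3 *Mitf* transcripts in the table had ratios of 0.699, 0.516 and 0.50 of the mean at 16.8 mM to that at 2.8 mM.

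Calls among the autophagy genes rested partly on single libraries. *Atg3* and *Atg13* no longer passed without 16.8 mM replicate 2 (adjusted p = 0.071 and 0.13) or without 2.8 mM replicate 1 (adjusted p = 0.089 and 0.191), whereas *Wipi1*, *Sqstm1* and *Gabarapl1* passed whichever of the 4 libraries was left out. With no minimum RPKM, where nearly empty transcripts entered the fit and 9.13% of 28047 were called, 2 autophagy genes were called, and *Sqstm1* (adjusted p = 0.0531), *Gabarapl1* (0.072), *Atg3* (0.0977) and *Atg13* (0.0886) did not pass.

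Among the lysosomal genes, an ion channel fell to 0.499 of its low glucose level and a hydrolase rose 2.07-fold, while the abundant hydrolases did not pass the test. Of the 11 genes, 10 were tested, 1 was higher, 1 was lower and 8 did not pass. The share called was 20%, below the 33.4% of all transcripts. The median log2 fold change was -0.02, against -0.11 over all transcripts. With the libraries centred on their medians, 3 were higher and 1 was lower.

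*Mcoln1* encodes TRPML1, the channel that lets calcium out of the lysosome. It measured 4.03 and 4.11 RPKM at 2.8 mM and 2.17 and 1.89 RPKM at 16.8 mM glucose. The mean at high glucose was 0.499 times that at low glucose, with a log2 fold change of -0.86 ± 0.10 (SE, limma adjusted p = 0.00133). The gene, which has the CLEAR core 46 bases before its start, lies at chromosome 8, 3500457 to 3515232, and no annotated gene crosses it. The major membrane glycoprotein gene *Lamp1* measured 35.1 and 32.8 RPKM against 29.0 and 27.6 RPKM. Its groups did not overlap, but the log2 fold change of -0.26 did not pass (limma adjusted p = 0.146). *Lamp2* (log2 fold change 0.05) did not pass. *Npc1*, which exports cholesterol from the lysosome, was under the minimum, with 0.731 and 0.713 RPKM against 0.502 and 0.464 RPKM, and was lower by voom (log2 fold change -0.58, adjusted p = 0.000297).

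**Figure D4:**
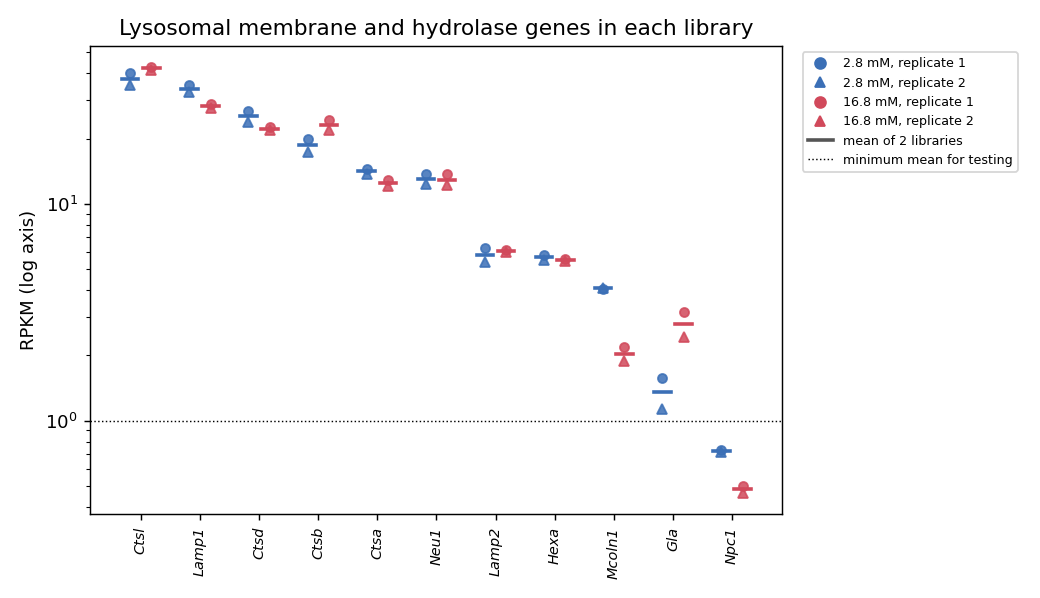
RPKM of the 11 genes of the lysosomal membrane and its hydrolases in each library (vertical log axis), ordered by mean, with circles for replicate 1, triangles for replicate 2 and bars for the mean of 2 libraries. *Mcoln1* is lower and *Gla* higher in both 16.8 mM libraries, and the hydrolases above 10 RPKM differ by 1.24-fold at most between the groups.

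The hydrolases were tested in full, 7 of 7. *Gla*, alpha-galactosidase A, whose lack causes Fabry disease, measured 1.57 and 1.13 RPKM at 2.8 mM and 3.17 and 2.43 RPKM at 16.8 mM glucose. The mean was 2.07-fold higher, with a log2 fold change of 0.83 ± 0.15 (SE, limma adjusted p = 0.00663). It was the only hydrolase member past the threshold in the limma test on uncentred values given above, and it carries the CLEAR core at 2 places in its promoter window. The cysteine protease gene *Ctsb* measured 19.9 and 17.4 RPKM against 24.3 and 21.9 RPKM and did not pass (log2 fold change 0.30, limma adjusted p = 0.121). The aspartic protease gene *Ctsd* measured 26.8 and 23.9 RPKM against 22.6 and 21.9 RPKM and did not pass (log2 fold change -0.18, limma adjusted p = 0.296). These 2 cathepsin genes thus leaned to opposite sides without either difference passing. *Ctsa*, *Ctsl*, *Hexa* and *Neu1* had log2 fold changes from -0.17 to 0.16, none past the threshold. With the libraries centred on their medians, limma called *Ctsb* (adjusted p = 0.0152) and *Ctsl* (adjusted p = 0.048) higher as well as *Gla*. *Mcoln1* and *Gla* passed whichever of the 4 libraries was left out, but with no minimum RPKM *Gla* did not pass (adjusted p = 0.103). On reconstructed reads, voom called *Ctsb* higher (adjusted p = 0.0183) and *Lamp1* lower (adjusted p = 0.0274).

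Among the proton pump genes, every call by limma was a fall in the V1 sector. Of the 25 genes, 17 were tested, 4 were lower, none was higher and 13 did not pass, and the median log2 fold change was -0.15. In the V1 sector, 8 of 13 genes were tested, all 8 had negative log2 fold changes from -0.51 to -0.10, and 4 passed. Beside them, 22.8% of all transcripts were called lower, and the median of all transcripts was -0.11, while the 4 calls among all 17 tested pump genes are 23.5% against the 33.4% of all transcripts. In the V0 sector, 7 of 10 genes were tested and none passed by limma, where 1 had an unadjusted p under 0.05 and voom called 1, *Atp6v0e2*. Their log2 fold changes ran from -0.30 to 0.15. The difference between the sectors was not itself tested. With the libraries centred on their medians, 5 pump genes were higher and 5 lower. All 4 V1 genes were lower there too, as was *Atp6v0e2*, and 3 V0 entries and both accessory genes were higher.

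*Atp6v1g1*, a subunit of the stalk that links the ATP-hydrolysing head to the membrane, measured 21.3 and 19.2 RPKM at 2.8 mM and 14.9 and 13.2 RPKM at 16.8 mM glucose (log2 fold change -0.51 ± 0.13 SE, limma adjusted p = 0.0228). *Atp6v1c1*, the subunit that leaves when the sectors come apart, measured 4.13 and 3.95 RPKM against 2.85 and 2.69 RPKM (log2 fold change -0.47 ± 0.09 SE, limma adjusted p = 0.0091). Both genes fell to about 0.7 times their low glucose mean, with ratios of 0.695 and 0.686. *Atp6v1d*, in the central rotor, measured 5.29 and 4.79 RPKM against 3.87 and 3.56 RPKM (log2 fold change -0.40 ± 0.10 SE, limma adjusted p = 0.0261). *Atp6v1a*, the catalytic subunit with the CLEAR core in its promoter window, measured 2.81 and 2.56 RPKM against 2.17 and 2.07 RPKM (log2 fold change -0.28 ± 0.09 SE, limma adjusted p = 0.0497). In each of the 4 genes, both high glucose libraries lay below both low glucose libraries, as they did for 48.3% of all transcripts tested. *Atp6v1b2*, *Atp6v1e1*, *Atp6v1f* and *Atp6v1h* did not pass, with log2 fold changes from -0.19 to -0.10.

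*Atp6v1c1* was the one pump gene that passed whichever of the 4 libraries was left out. Without 16.8 mM replicate 2 it was the only one (1 call in place of 4), since *Atp6v1g1* (adjusted p = 0.165), *Atp6v1d* (0.13) and *Atp6v1a* (0.179) did not pass. Without 2.8 mM replicate 1 the calls were 2, as *Atp6v1d* (adjusted p = 0.126) and *Atp6v1a* (0.32) did not pass, and *Atp6v1a* was also lost without either of the other 2 libraries (0.0842 and 0.0884). With no minimum RPKM the calls were 1, *Atp6v1c1* again.

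**Figure D5:**
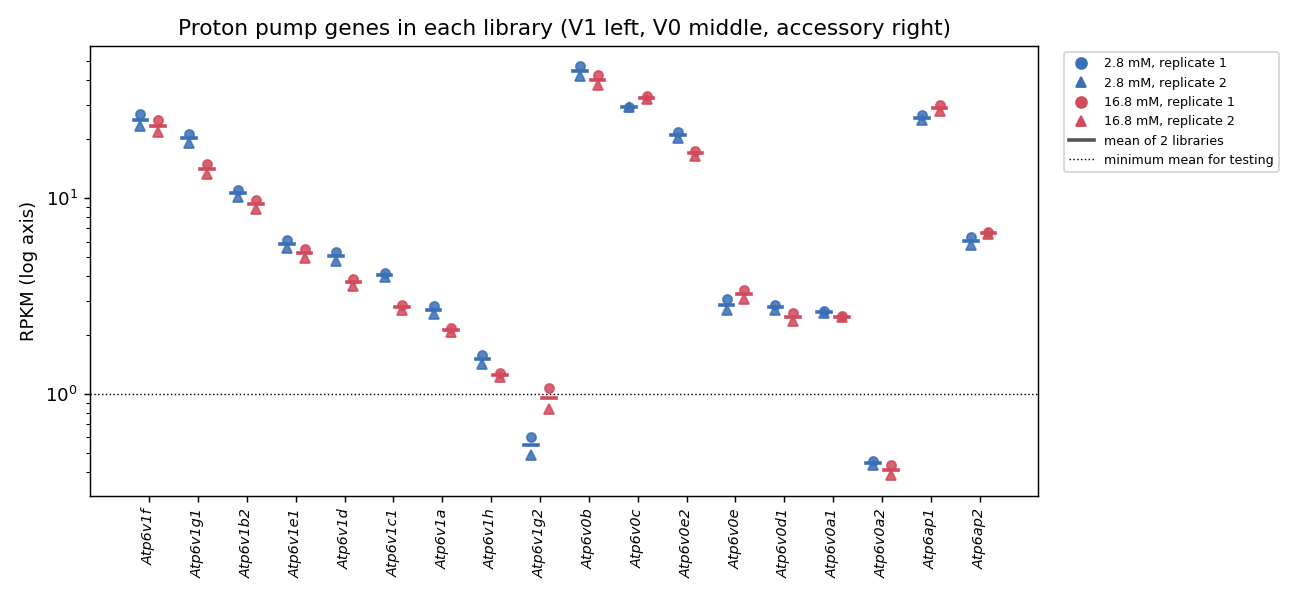
RPKM of the proton pump genes with a mean of at least 0.1 RPKM in each library (vertical log axis), the V1 sector on the left, the V0 sector in the middle and the accessory subunits on the right, without the pseudogene *Atp6v0c-ps2*. The means of 8 tested V1 genes are lower at 16.8 mM, *Atp6v1g2* under the dotted 1 RPKM line is higher, and the V0 genes lie on both sides.

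Subunits with several genes showed different isoforms in use. Of the G subunits, *Atp6v1g2*, known from neurons, was under the minimum but rose where *Atp6v1g1* fell, with 0.607 and 0.488 RPKM at 2.8 mM and 1.08 and 0.834 RPKM at 16.8 mM glucose (voom log2 fold change 0.81, adjusted p = 0.00393, on 129 to 334 reads). With no minimum RPKM, limma did not call *Atp6v1g2* (adjusted p = 0.121). It shares 2133 bases with *Nfkbil1* on the opposite strand, which measured 1.16 and 0.961 RPKM against 0.793 and 0.667 RPKM and so moved the other way. *Atp6v1g3* was at 0 to 2 reads a library.

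The e subunit of V0 was the only subunit with 2 genes above 1 RPKM. *Atp6v0e* measured 3.04 and 2.67 RPKM at 2.8 mM and 3.39 and 3.05 RPKM at 16.8 mM (log2 fold change 0.15, limma adjusted p = 0.296), and *Atp6v0e2* measured 21.7 and 20.2 RPKM against 17.4 and 16.4 RPKM (log2 fold change -0.30, limma adjusted p = 0.0953). Neither difference passed. *Atp6v0e2* was the higher of the pair in RPKM, but *Atp6v0e* has long introns. On the level rescaled to exons *Atp6v0e* was the higher, at 83.7 and 94.3 against 48.3 and 39.0. That level assumes that all reads are exonic, which was not tested, so the order of the pair is not settled. The isoforms of other subunits were unequal: *Atp6v0a1* measured 2.46 to 2.64 RPKM and *Atp6v0a2* 0.385 to 0.456 RPKM, while *Atp6v0a4*, *Atp6v0d2*, *Atp6v1b1*, *Atp6v1c2* and *Atp6v1e2*, known from kidney, bone, testis and other tissues, were at or under 0.0222 RPKM in every library.

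The accessory subunits assemble the pump and, in the case of *Atp6ap2*, also serve as the prorenin receptor. *Atp6ap1* measured 26.4 and 25.0 RPKM at 2.8 mM and 29.7 and 27.9 RPKM at 16.8 mM (log2 fold change 0.16, limma adjusted p = 0.336). *Atp6ap2* measured 6.36 and 5.73 RPKM against 6.67 and 6.54 RPKM (log2 fold change 0.12, limma adjusted p = 0.41). Both were higher in both high glucose libraries, as were 22.2% of all transcripts tested. Neither passed, but both did once the libraries were centred on their medians (limma adjusted p = 0.0241 and 0.0377). *Atp6v0c*, the gene of the ring that carries the protons, behaved likewise, at a log2 fold change of 0.15 (limma adjusted p = 0.359, or 0.0431 when centred). *Atp6v0c-ps2*, a pseudogene, was 1.01 times *Atp6v0c* in each of the 4 libraries, so the 2 entries hold the same reads and count as 1 observation. Without it, 4 of 16 pump genes were called.

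Other genes of these pathways, a list of 94 of 4 kinds, were mostly lower where they passed. Of 64 tested, 5 were higher and 24 lower, which is 45.3% against the 33.4% of all transcripts, with a median log2 fold change of -0.21. Over all transcripts, falls also outnumbered rises, with 22.8% called lower and 10.7% called higher, and the median was -0.11. This list, too, was chosen with earlier results of these data known. Autophagy genes outside the members had 3 higher and 7 lower of 15 tested, hydrolases and their partners 2 higher and 6 lower of 22, genes of the lysosomal membrane and of sorting none higher and 5 lower of 15, and genes that dock mTORC1 on the lysosome none higher and 6 lower of 12. The difference from the members was not tested. Without 16.8 mM replicate 2 the calls were 18 in place of 29, and with no minimum RPKM 14.

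*Cln3*, a lysosomal membrane protein lost in juvenile Batten disease, showed the largest fall, from 4.07 and 3.85 RPKM at 2.8 mM to 1.55 and 1.40 RPKM at 16.8 mM (log2 fold change -1.18 ± 0.09 SE, limma adjusted p = 0.00038), and it holds TCACGTGA in its promoter window, as did 4 of the 73 other pathway genes with a window. Of the other 3, *Gnptg* and *Igf2r* did not pass and *Vps33a* was under the minimum. *Rragd*, a GTPase that brings mTORC1 to the lysosome, fell from 3.76 and 3.54 RPKM to 1.81 and 1.63 RPKM (log2 fold change -0.90 ± 0.09 SE, limma adjusted p = 0.00089). *Fnip2*, which acts with folliculin on the same GTPases, fell from 1.80 and 1.89 RPKM to 0.821 and 0.721 RPKM (log2 fold change -0.89 ± 0.08 SE, limma adjusted p = 0.000617). In all 3 genes the groups were well apart. *Fnip2* reached the minimum for testing only through the 2.8 mM libraries, and voom on reconstructed reads gave a log2 fold change of -1.26 (adjusted p = 2.49e-08).

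The largest rises were in a pair of receptors that mark mitochondria for autophagy and in a hydrolase. *Bnip3* measured 3.94 and 6.85 RPKM at 2.8 mM and 17.6 and 13.4 RPKM at 16.8 mM (log2 fold change 1.48 ± 0.24 SE, limma adjusted p = 0.00518), and *Bnip3l* 1.64 and 1.75 RPKM against 3.23 and 2.73 RPKM (log2 fold change 0.66 ± 0.10 SE, limma adjusted p = 0.00384). *Gusb*, beta-glucuronidase, rose from 2.15 and 1.91 RPKM to 3.36 and 3.35 RPKM (log2 fold change 0.61 ± 0.09 SE, limma adjusted p = 0.00378). Not all genes of mitochondrial autophagy in the list moved this way: the receptor gene *Fundc1* (log2 fold change -0.46, limma adjusted p = 0.00855) and the kinase gene *Pink1* (log2 fold change -0.39, limma adjusted p = 0.0256) were lower. With no minimum RPKM, *Bnip3* (adjusted p = 0.1) and *Bnip3l* (0.0554) did not pass.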

How the data were processed

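Per the labels and the study's methods, total RNA of pooled mouse islets was made into TruSeq v2 libraries, and RPKM values of the 4 libraries, without counts, were deposited by the authors in a single table. The submitters' notes name STAR, bedtools, DESeq and mm9. Which tool made the islet values, and whether strand was used, is not given in the sources used here. In the 2.8 mM libraries, 77.3% and 78.3% of low values were close to whole reads when multiplied by the genomic span, and 6.55% and 7.65% when multiplied by exon length. The reads of a gene inside an intron may thus be counted in the host gene.

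Depth (50800000 to 60710000 reads) came from the step that 1 read makes in the value of an lncRNA, and read numbers are RPKM times span and depth. The precision of each comparison rests on 2 libraries a group. Values were taken to log2(RPKM + 0.5). A gene's identical entries counted once, and limma 3.58.1 tested the entries that reached a mean of 1 RPKM (R 4.3.3, variance trend, Benjamini-Hochberg over 7867 entries). The test was run on simulated data first. Other steps used Python 3.11.15, pandas 2.3.3, numpy 2.4.6 and matplotlib 3.10.9.

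The members and lists were chosen with earlier results of these data known. Values in every library were given for members past the threshold (up to 8 a group), for *Sqstm1*, *Map1lc3b*, *Becn1*, *Tfeb*, *Lamp1*, *Ctsb*, *Ctsd*, *Atp6ap1* and *Atp6ap2*, for subunit isoforms above 1 RPKM, and for the 3 largest rises and falls among other pathway genes. Any other gene given with values was chosen after its values were seen. Levels rescaled to exons are RPKM times span over exon length, for 54 of 55 members, and assume that all reads are exonic. These levels and the read numbers use the longest annotated transcript of a gene, whose span may differ from that of the entry. Alternatives were no variance trend, quantile normalization, median centring, 0.1 or 1 RPKM added, other minimums, a replicate block, each library left out, other sets of entries, and voom on reconstructed reads with a mean of at least 20. Protein sequences were not used here.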

Additional observations from a re-analysis of the deposited data

How the results depend on the processing

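Of the 11 members called, none changed direction under any alternative and 3 (*Wipi1*, *Mcoln1* and *Atp6v1c1*) were past the threshold in every alternative that tested them. *Wipi1* is not tested where every library must reach 1 RPKM. Over 30 named genes, 412 of 478 values under an alternative kept direction and side of the threshold, 39 newly passed, 25 no longer passed and 2 reversed. The 2 were *Becn1*, which ranged from -0.0567 to 0.0993 (log2) with a library left out. Of the 25, 10 came with no minimum RPKM and the rest with other settings.

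Counts of calls moved more than 1.5-fold as follows. With no minimum RPKM they were 2 autophagy genes, 1 pump gene and 14 other pathway genes. With centring on the median they were 4 lysosomal and 10 pump genes, and with quantile normalization 4 lysosomal genes. With voom on reconstructed reads they were 7853 of 18554 transcripts (42.3%). Among the listed genes they were 11 of 19 autophagy, 5 of 11 lysosomal, 7 of 21 pump and 48 of 94 other pathway genes. With a library left out they ranged from 3 to 5 autophagy, from 1 to 3 pump and from 18 to 29 other pathway genes, where the lone library of a group was assumed to vary like the other group. The median log2 fold change of the autophagy genes was 0.00204 with centring and -0.20 with voom, which also tests members under 1 RPKM, and that of the pump genes was -0.0614 with centring and -0.0563 with no minimum. With a library left out, that of the autophagy genes ranged from -0.141 (without 2.8 mM replicate 2) to -0.0211 (without 2.8 mM replicate 1), and was -0.0527 without 16.8 mM replicate 2. That of the pump genes ranged from -0.209 to -0.0818, the latter without 16.8 mM replicate 2, and was -0.0823 without 2.8 mM replicate 1. That of the lysosomal genes was -0.02, and it was 0.06 with centring, 0.04 with quantile normalization and from -0.08 to 0.03 with a library left out. The cause of these differences was not tested.

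Replicates 1 and 2 share only a number: the deviations of same-numbered libraries correlated at 0.31, and nothing in the labels pairs them. With a replicate block the calls were 4067 of the 7867 transcripts tested. Among the listed genes tested they were 7 of 14 autophagy, 4 of 10 lysosomal, 6 of 17 pump and 41 of 64 other pathway genes. All 8 acinar markers tested were then higher at 16.8 mM (adjusted p = 0.0096 to 0.0319). With the block and voom, chosen after seeing the data, the calls were 10728 of 18554 transcripts. They were 13 of 19 autophagy, 8 of 11 lysosomal, 14 of 21 pump and 64 of 94 other pathway genes. The autophagy median was then -0.20. Leaving out *Atp6v0c-ps2*, also chosen after seeing the data, left 4 pump calls.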
